A study of Mus musculus with 8 samples.

Results

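Oosp1, Oosp2, Oosp3, Omt2a and Omt2b, mouse genes transcribed in the oocyte, were followed through 8 libraries of C57BL/6 mouse embryos. They were chosen by symbol, as the Oosp (oocyte secreted protein) and Omt2 (oocyte maturation) genes of the table, a rule that uses no measured value, although earlier results of these data were known when they were listed. They are 5 of 24791 genes and 6 of the 41782 table entries that could be given a gene symbol, and all 5 passed the filter on low values. The libraries fell into 4 groups of 2: CX45, CX22, 8C and 2C. All were total RNA of embryos of the same strain, amplified by Smart-seq, a method that amplifies whole-transcript cDNA from minute inputs. 8C was taken to mean embryos of the 8-cell stage, and 2C those of the 2-cell stage. What CX45 and CX22 stand for is not given in the labels, nor is a control for either or the number of embryos in a library, so every pair of groups was compared. The series title concerns RNA polymerase I transcription and chromatin architecture in embryos.

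Oosp1, Oosp2 and Oosp3 encode small secreted proteins that are related to Plac1, a protein of the placenta. Omt2a and Omt2b are a gene pair whose transcripts accumulate in the oocyte. The growing oocyte stores such transcripts, and the early embryo starts development with them. Most of that maternal store is then destroyed, in a first wave during meiotic maturation and in further steps around the time when the embryo begins to transcribe its own genome.

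The 5 genes form 2 clusters. On mm9, the build of the deposited table, Oosp2 (NM_001037634, chr19:11721774-11735049), Oosp1 (NM_133353, chr19:11741950-11765541) and Oosp3 (NM_001033283, chr19:11771545-11786348) lie in that order with gaps of 6900 and 6003 bases. Omt2a (NM_001111286, chr9:78159779-78161855) and Omt2b (NM_205822, chr9:78175837-78177427) lie next to each other. A second, longer Omt2a entry, which ends at base 78162604 and so 13232 bases short of Omt2b, was listed at 0 in all 8 libraries.

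The windows from 250 bases before to 50 bases after the RefSeq start sites are shown for the members that RefSeq lists in GRCm38.p6, with every match of the searched motifs in capitals. Whether these sequences have a part in the levels was not tested. The motifs, searched on both strands, were CANNTG (the E-box, bound by basic helix-loop-helix factors such as Figla), TAATTA and TAATTG (the homeobox core bound by Nobox), TATAAA (the TATA box) and CCAAT, whose reverse complement is ATTGG. No match overlapped another. Each window is written 5′ to 3′ on the strand of its gene.
Oosp1, chr19:11691002-11691301, minus strand: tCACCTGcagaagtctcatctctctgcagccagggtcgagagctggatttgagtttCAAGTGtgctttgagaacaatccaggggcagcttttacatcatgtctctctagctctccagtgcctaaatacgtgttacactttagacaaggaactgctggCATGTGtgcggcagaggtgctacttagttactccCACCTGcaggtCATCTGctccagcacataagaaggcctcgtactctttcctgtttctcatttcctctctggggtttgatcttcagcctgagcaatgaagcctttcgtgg
Oosp2, chr19:11660510-11660809, minus strand: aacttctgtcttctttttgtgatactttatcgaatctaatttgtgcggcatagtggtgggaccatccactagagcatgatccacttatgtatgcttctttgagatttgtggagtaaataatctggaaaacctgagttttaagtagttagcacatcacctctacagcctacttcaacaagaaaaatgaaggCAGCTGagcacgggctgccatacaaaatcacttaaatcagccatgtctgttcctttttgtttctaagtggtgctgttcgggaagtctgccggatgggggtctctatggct
Omt2a, chr9:78313999-78314298, minus strand: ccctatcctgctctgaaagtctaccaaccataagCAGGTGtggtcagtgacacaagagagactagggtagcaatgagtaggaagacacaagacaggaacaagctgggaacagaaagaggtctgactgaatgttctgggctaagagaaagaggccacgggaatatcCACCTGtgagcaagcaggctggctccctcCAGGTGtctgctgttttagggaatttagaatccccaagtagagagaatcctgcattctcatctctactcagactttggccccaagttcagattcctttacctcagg
Omt2b, chr9:78327780-78328079, plus strand: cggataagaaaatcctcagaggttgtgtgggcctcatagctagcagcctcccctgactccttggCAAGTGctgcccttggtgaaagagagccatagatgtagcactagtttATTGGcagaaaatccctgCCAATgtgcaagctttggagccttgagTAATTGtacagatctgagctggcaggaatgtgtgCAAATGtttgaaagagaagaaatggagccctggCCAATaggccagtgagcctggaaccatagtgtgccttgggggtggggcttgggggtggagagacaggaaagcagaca

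An E-box stood in all 4 windows, with 5 matches in Oosp1, 1 in Oosp2, 3 in Omt2a and 2 in Omt2b. Of the 32851 RefSeq promoter windows of the same length, 72.3% held at least 1. In each of the 4 windows 1 E-box began between positions -60 and -56, counted with the start site as 0. It was CACCTG at -59 in Oosp1, CAGCTG at -60 in Oosp2, CAGGTG at -56 in Omt2a and CAAATG at -60 in Omt2b. An E-box began in that stretch in 723 of the 32851 windows, or 2.2%. The stretch was chosen after these matches were seen, so the share is a description and not a test. TAATTG matched once, in Omt2b (8.0% of all windows). CCAAT matched 3 times, all in Omt2b (37.4% of all windows). TAATTA (5.3% of all windows) and TATAAA (13.6%) matched in none of the 4. The G and C content was 49.3% in Oosp1, 42.3% in Oosp2, 49.0% in Omt2a and 51.3% in Omt2b, against a median of 52.7% over all windows.

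**Figure D1:**
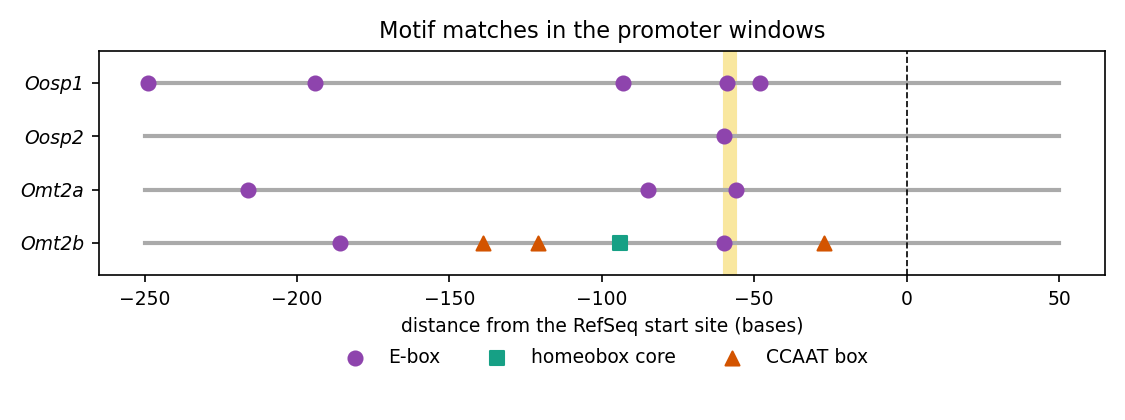
Positions of motif matches in the promoter windows of Oosp1, Oosp2, Omt2a and Omt2b, as bases from the RefSeq start site (dashed line) to the first base of the match; grey lines are the windows, circles are E-boxes, the square is TAATTG and triangles are CCAAT. Each gene has an E-box that begins in the shaded stretch between -60 and -56, which was chosen after the matches were seen.

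Omt2a and Omt2b are alike as transcripts and unlike in these windows. Their GENCODE transcripts, of 1167 bases for Omt2a and 735 for Omt2b, were identical at 90.1% of 709 aligned bases and shared an unbroken run of 260 bases. Their longest reading frames, of 100 and 119 codons, were identical at 81.0% of 294 aligned bases. The longest run shared by the 2 promoter windows was 9 bases. Reads within the shared run cannot be assigned to one gene or the other, so the 2 genes are given singly and as a sum.

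Values are FPKM, which corrects fragment numbers for transcript length and library depth, so levels can be set side by side between genes. From the spacing of low FPKM values the depth came out between 9.78 and 20.26 M fragments per library (M, 1e6), highest in 8C. Summed over markers of the 2-cell stage (Zscan4c, Zscan4d, Zfp352, Tdpoz4 and Usp17la), levels were 48.3 and 281 FPKM in CX45, 234 and 276 FPKM in CX22, 11.0 and 11.3 FPKM in 8C, and 215 and 206 FPKM in 2C. The CX45 libraries differed most from each other there: the 281 FPKM of replicate 2 came mostly from Zfp352 (179 FPKM) and Tdpoz4 (73.7 FPKM), while Zscan4c, Zscan4d and Usp17la stood lower in both CX45 libraries than in any CX22 or 2C library. Tdpoz4 went against its label, at 9.15 and 9.57 FPKM in 8C and 0.972 and 0.699 FPKM in 2C. Markers of the 8-cell stage (Nanog, Tead4, Dppa2, Dppa4 and Krt8) summed to 904 and 1197 FPKM in CX45, 72.2 and 50.4 FPKM in CX22, 1277 and 1602 FPKM in 8C, and 62.9 and 65.0 FPKM in 2C. Dppa2 and Dppa4 supplied most of the 8-cell sums. Nanog, Tead4, Dppa2 and Krt8 were lower in both CX45 libraries than in both 8C libraries, while the Dppa4 ranges overlapped. Nanog was at 6.53 and 4.54 FPKM in CX45 and 20.3 and 18.2 FPKM in 8C. Krt8 was at 1.46 and 0 FPKM in CX45 and 5.77 and 6.45 FPKM in 8C. The 13 cumulus and granulosa cell markers summed to at most 9.58 FPKM in any library. Of these, Amh, Inha, Fshr, Lhcgr and Ptx3 were listed at 0 in all 8 libraries. The 7 sperm markers summed to at most 42.9 FPKM, in CX22. The 7 blood markers summed to 315 and 374 FPKM in CX45 and to between 21.1 and 106 FPKM in the other libraries. Hba-a1 alone supplied 286 and 347 FPKM of the CX45 sums, while Hbb-b1, Hbb-bt, Ptprc and Alas2 stood at or below 0.786 FPKM in every library, and the part of these markers in the results was not tested. The 2C libraries differed from each other about as little as sampling noise allows (the median chi-square over 49 genes with 1 exon was 0.725 times that of chance, and 1.33 times over 5476 genes with 1 entry, against at least 39.0 times in any other group), so they were averaged and counted as 1 sample. The labels do not say whether the libraries of a group came from separate embryos, so a p-value here measures sample-to-sample spread that may be no more than technical. In bulk samples fewer cells with a transcript and less of it per cell cannot be told apart.

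Oosp1 was present at 62.9 and 89.0 FPKM in CX45, 1267 and 1705 FPKM in CX22, 5.51 and 9.66 FPKM in 8C, and 1693 and 1700 FPKM in 2C. The CX22 and 2C ranges overlapped, and both CX45 libraries lay between those 2 groups and 8C. Among all genes above 0 in its library it ranked 1424 and 1123 in CX45, 37 and 28 in CX22, 4757 and 3787 in 8C, and 31 and 29 in 2C. It was the most abundant of the Oosp genes in all libraries except CX22 replicate 1, where Oosp3 stood above it.

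Oosp2 was present at 14.3 and 21.1 FPKM in CX45, 291 and 533 FPKM in CX22, 0.166 and 1.10 FPKM in 8C, and 729 and 718 FPKM in 2C. The 4 groups did not overlap. The 8C values rest on about 2.0 and 15.1 fragments, so the first lies under the 3 fragments taken here as the limit of detection, a limit that covers counting error only. Oosp2 was the lowest of the 5 genes in every library in which none of them was listed at 0.

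Oosp3 was present at 17.3 and 23.2 FPKM in CX45, 1563 and 1695 FPKM in CX22, 0.832 and 4.28 FPKM in 8C, and 1538 and 1596 FPKM in 2C. The CX22 and 2C ranges overlapped here too, and the 8C libraries, at about 12 and 69.9 fragments, differed from each other by a larger ratio than those of any other group. Oosp3 stood near Oosp1 in CX22 and 2C and near Oosp2 in CX45.

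Omt2a was present at 579 and 808 FPKM in CX45, 40420 and 33867 FPKM in CX22, 50.7 and 45.6 FPKM in 8C, and 30570 and 33189 FPKM in 2C. The CX22 libraries lay above both 2C libraries, and the CX45 libraries lay between 8C and those 2 groups. Among all genes it ranked 192 and 141 in CX45, 2 and 1 in CX22, 1519 and 1673 in 8C, and 2 and 1 in 2C. By itself it made up 0.0899% and 0.126% of the summed FPKM in CX45, 7.09% and 7.03% in CX22, 0.00731% and 0.00680% in 8C, and 5.50% and 7.003% in 2C. In CX22 and 2C the sum of replicate 1 holds a large Omt2b value and that of replicate 2 does not. The shares of those replicates are therefore not comparable with each other.

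Omt2b was present at 879 and 1085 FPKM in CX45. In CX22 it was at 99972 FPKM in replicate 1 and listed at 0 in replicate 2. It was at 147 and 108 FPKM in 8C, and in 2C at 83519 FPKM in replicate 1 and listed at 0 in replicate 2. The CX22 and 2C values above 0 were the highest of all genes in their libraries. In CX22 replicate 2 and in 2C replicate 2 it was the 1 gene listed at 0 that stood over 10000 FPKM in another library. Both of those libraries were the deeper of their pair, at 12.07 and 12.81 M fragments, against 9.78 and 11.99. The FPKM summed over all genes but Omt2b was 469881 in replicate 1 and 481879 in replicate 2 of CX22, and 472274 in replicate 1 and 473903 in replicate 2 of 2C, so the pairs differed little on that sum. A listed 0 can be a failed estimate, and the cause was not tested, so these Omt2b levels are given library by library for CX22 and 2C. The tests of Omt2b as listed, however, average its 2C values before the log, as for all genes. They thus set the other groups against 41760 FPKM, the mean of 83519 and 0.

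The Omt2 sum was 1458 and 1894 FPKM in CX45, 140392 and 33867 FPKM in CX22, 198 and 153 FPKM in 8C, and 114090 and 33189 FPKM in 2C. In the second CX22 and 2C libraries it equals Omt2a alone, so within those groups the libraries cannot be compared on the sum. All CX22 and 2C values of the sum lay above both CX45 values, and both of these lay above both 8C values. The 5 genes together made up 0.241% and 0.317% of the summed FPKM in CX45, 25.2% in CX22 replicate 1, 0.0295% and 0.0251% in 8C, and 21.2% in 2C replicate 1. The second CX22 and 2C libraries, in which Omt2b was listed at 0, are not included.

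**Figure D2:**
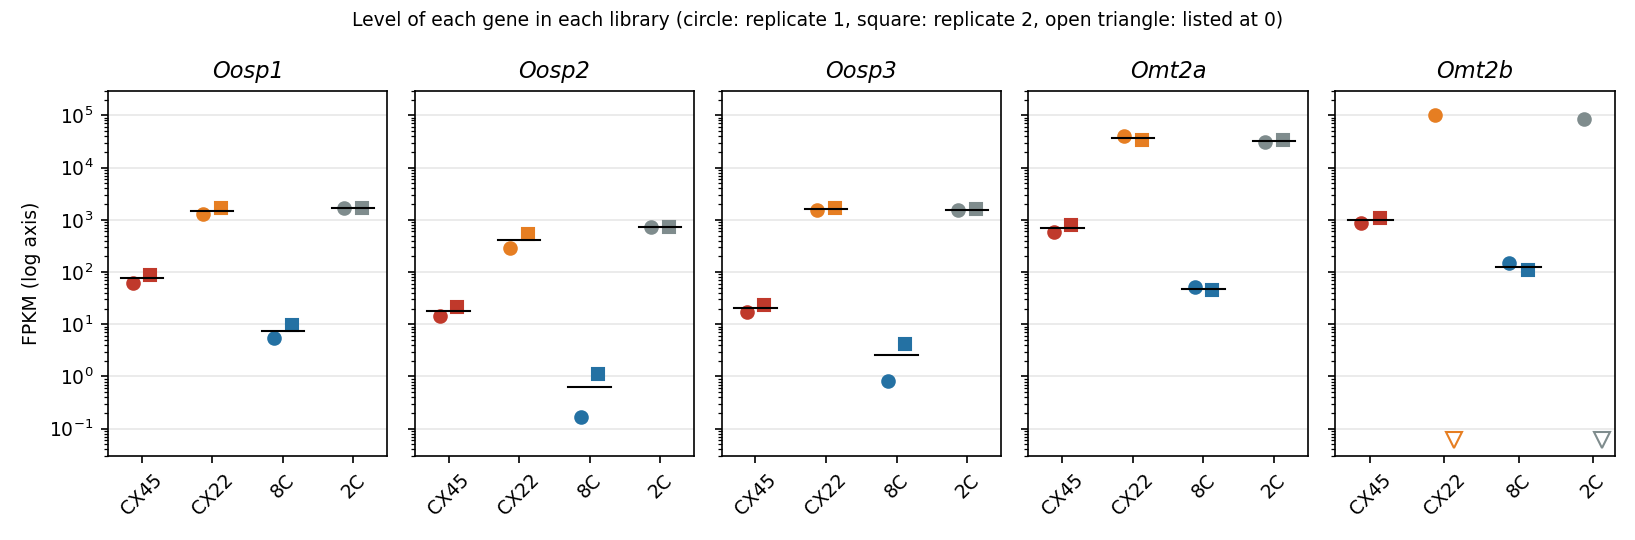
FPKM (log axis) of the 5 genes in each library, by group; circles are replicate 1, squares replicate 2, bars the mean of groups in which no library was listed at 0, and open triangles at the bottom mark libraries listed at 0. CX22 and 2C sit together at the top, 8C lies lowest, and CX45 lies between them for all 5 genes in the libraries above 0.

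**Figure D3:**
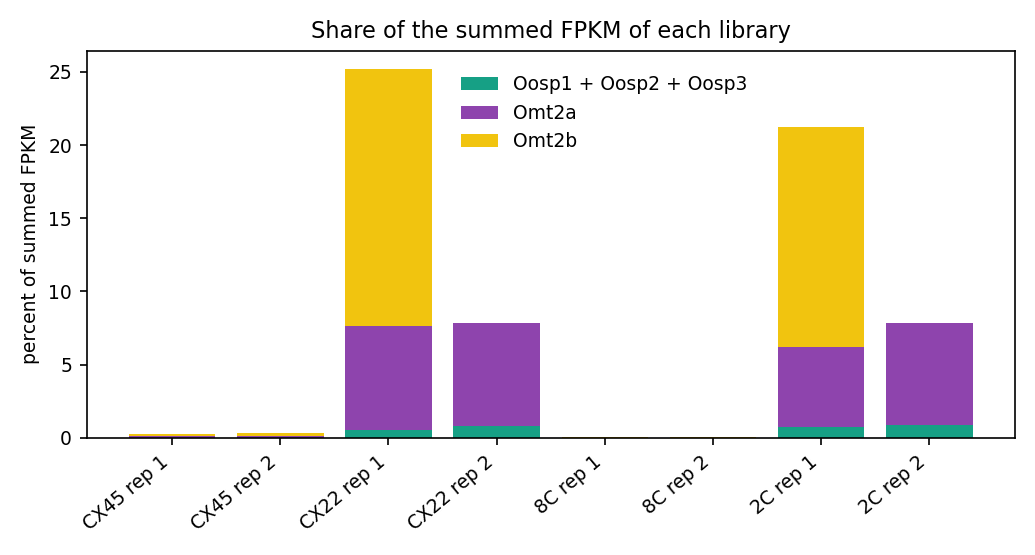
Percent of the summed FPKM of each library taken by the 3 Oosp genes together, Omt2a and Omt2b. The Omt2b share, 17.5% in CX22 replicate 1 and 15.03% in 2C replicate 1, is missing from the second library of both groups.

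The first comparison was 8C against 2C, the 2 groups named for a stage. Oosp1, Oosp2, Oosp3 and Omt2a all fell, and the level that remained in 8C was 0.447% of that in 2C for Oosp1, 0.0875% for Oosp2, 0.163% for Oosp3 and 0.151% for Omt2a. On the log2(FPKM + 1) scale used for the test, which understates the change of low genes, Oosp1 fell by 7.67 (standard error 0.44, limma adjusted p = 0.00198) and Oosp2 fell by 8.85 (standard error 0.58, adjusted p = 0.00203). Oosp3 fell by 8.98 (standard error 0.67, adjusted p = 0.0023). Omt2a fell by 9.34 (standard error 0.32, adjusted p = 0.00198). In this comparison 4 of 5 members were called lower, at an adjusted p under 0.05 and a log2 fold change of at least 1, against 20.7% of the 11853 genes tested. Counted from the lowest fold change of those genes, Omt2a ranked 3, Oosp3 ranked 5, Oosp2 ranked 7 and Oosp1 ranked 25. The Omt2 sum fell by 8.72 (standard error 0.88, adjusted p = 0.00405). Its 2C value was the mean of 114090 and 33189 FPKM, a gap beyond sampling noise that adds no spread to the fit. That holds for every comparison of the sum with 2C, so those standard errors may be too small. Omt2b as listed did not pass (log2 fold change -8.36, standard error 6.63, adjusted p = 0.362). With its zeros treated as missing values, an alternative added after the data were seen, it fell by 9.36 (standard error 0.36, adjusted p = 0.00198). The fold change of Oosp2 depends on the pseudocount, since its 8C values are near 0, and lay between -10.32 and -6.11 over the alternatives, called in each.

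CX22 was set against 2C next. No member passed: 0 of 5 were called, against 3.88% of all genes tested, and 1915 genes had an unadjusted p under 0.05. Mean levels in CX22 were 87.6% of those in 2C for Oosp1, 57.0% for Oosp2, 104% for Oosp3 and 117% for Omt2a. The log2 difference was -0.21 for Oosp1 (95% interval -1.35 to 0.94, adjusted p = 0.926) and -0.87 for Oosp2 (95% interval -2.40 to 0.65, adjusted p = 0.618). It was 0.05 for Oosp3 (95% interval -1.69 to 1.80, adjusted p = 1) and 0.21 for Omt2a (95% interval -0.63 to 1.06, adjusted p = 0.86). The intervals leave room for changes of more than 1 in Oosp1, Oosp2 and Oosp3 in at least 1 direction, and for little more than 1 in Omt2a. The Omt2b values above 0, 99972 FPKM in CX22 and 83519 FPKM in 2C, differed by 0.26 on the log2 scale (95% interval -0.93 to 1.44, adjusted p = 0.876, zeros as missing). Without CX22 replicate 1 Omt2b is called lower, because the 1 CX22 library left is the one listed at 0.

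CX45 against CX22 gave falls in the same 4 genes, called lower in 4 of 5 members against 13.5% of all genes tested. CX45 held 5.11% of the CX22 level of Oosp1, 4.29% of that of Oosp2, 1.24% of that of Oosp3 and 1.87% of that of Omt2a. Mean levels were 75.9 ± 18.5 FPKM in CX45 and 1486 ± 309 FPKM in CX22 for Oosp1 (SD, n = 2 each), and 17.7 ± 4.79 FPKM in CX45 and 412 ± 171 FPKM in CX22 for Oosp2. They were 20.3 ± 4.19 FPKM in CX45 and 1629 ± 93.1 FPKM in CX22 for Oosp3, and 693.9 ± 162 FPKM in CX45 and 37143 ± 4634 FPKM in CX22 for Omt2a. The log2 fold change was -4.28 for Oosp1 (standard error 0.36, limma adjusted p = 0.00426), -4.43 for Oosp2 (0.47, adjusted p = 0.00576), -6.27 for Oosp3 (0.54, adjusted p = 0.00446) and -5.75 for Omt2a (0.26, adjusted p = 0.00323). The Omt2 sum fell by 5.37 (standard error 0.72, adjusted p = 0.00837), a call that ended without CX45 replicate 1 (adjusted p = 0.0562). Omt2b as listed had a log2 fold change of 1.63 with a standard error of 5.42, and with its zeros as missing it fell by 6.68 (standard error 0.36, adjusted p = 0.00391).

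Against 2C, CX45 again had the same 4 genes called lower, 4 of 5 against 13.6% of all genes tested. CX45 held 4.47% of the 2C level of Oosp1, 2.44% of that of Oosp2, 1.29% of that of Oosp3 and 2.18% of that of Omt2a. The log2 fold changes were -4.49 for Oosp1, -5.30 for Oosp2, -6.22 for Oosp3 and -5.54 for Omt2a, with limma adjusted p between 0.00311 and 0.00728. The Omt2 sum fell by 5.47 (standard error 0.88, adjusted p = 0.0156). That call ended without 8C replicate 1 (adjusted p = 0.0584), 8C replicate 2 (0.0583), CX45 replicate 1 (0.0766) or CX45 replicate 2 (0.0654). This comparison and the one with 8C share their 2C samples.

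CX22 against 8C had 4 of 5 members called higher against 19.9% of all genes tested. Mean levels in CX22 were 196 times those in 8C for Oosp1, 651 times for Oosp2, 638 times for Oosp3 and 772 times for Omt2a. The log2 fold changes were 7.46 for Oosp1, 7.98 for Oosp2, 9.03 for Oosp3 and 9.56 for Omt2a, with limma adjusted p between 0.00137 and 0.00145. The sum rose by 8.62 (standard error 0.72, adjusted p = 0.00228). The 8C values of Oosp2 and Oosp3 rest on few fragments, so their 2 ratios are less certain than those of Oosp1 and Omt2a.

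CX45 against 8C was the comparison in which the members were nearest to the threshold. All 5 stood higher in both CX45 libraries than in both 8C libraries, by mean levels of 10 times for Oosp1, 27.9 times for Oosp2, 7.94 times for Oosp3, 14.4 times for Omt2a and 7.71 times for Omt2b. Omt2a alone passed: 1 of 5 members was called higher, against 0.456% of all genes tested. Omt2a rose by a log2 fold change of 3.80 (standard error 0.26, limma adjusted p = 0.046). The log2 difference was 3.19 for Oosp1 (95% interval 2.25 to 4.12, adjusted p = 0.0519), 3.55 for Oosp2 (95% interval 2.31 to 4.796, adjusted p = 0.0595) and 2.76 for Oosp3 (95% interval 1.33 to 4.19, adjusted p = 0.0964). It was 3.25 for the Omt2 sum (adjusted p = 0.115). For Omt2b, neither group was listed at 0, but its spread in the fit came mainly from the CX22 zero; the difference was 2.95 with a standard error of 5.42 as listed and 0.29 with the zeros as missing (adjusted p = 0.0577). The median of all genes was 0.31 in this comparison and 0.00 after either rescaling of the libraries, and relative to it Omt2a stood 3.50 higher as deposited, 3.22 higher after median-of-ratios scaling and 3.55 higher after quantile normalization. The Omt2a call was lost after either rescaling (adjusted p = 0.0546 with median-of-ratios and 0.0568 with quantile normalization), as it was with a pseudocount of 10 (0.0734), no filter on low values (0.056) or moderation without a trend (0.0556). In this comparison 0 genes were called in either direction after either rescaling, with a pseudocount of 10 or with no filter. Without a trend 0 genes were called higher. The loss in these settings was thus not particular to Omt2a.

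Leaving out any 1 of the CX45, CX22 or 8C libraries leaves a group with 1 library. Every gene called in CX45 against 8C then lost its call, that of Omt2a included. Its adjusted p was 0.0809 without CX45 replicate 1, 0.0827 without CX45 replicate 2, 0.0789 without CX22 replicate 1, 0.0766 without CX22 replicate 2, 0.257 without 8C replicate 1 and 0.24 without 8C replicate 2. Its log2 fold change lay between 3.56 and 4.04 in those fits. With the 2C libraries kept separate, 4 of 5 members were called higher (Omt2a limma adjusted p = 0.00283). So were 839 of the 11853 genes tested, against 54 as reported. That fit counts 2 libraries that differ by about sampling noise as 2 samples and takes in their small spread, so its p-values may be too small.

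The fall between the CX groups was also set against the fall between the stage-named groups, as CX45 minus CX22 against 8C minus 2C, although the labels do not tie CX45 to 8C or CX22 to 2C. For Omt2a the fall between the CX groups was smaller by 3.59 on the log2 scale (standard error 0.42, limma adjusted p = 0.026), and it was the 1 member of 5 called, against 3.17% of all genes called in that direction. The difference was 3.39 for Oosp1 (95% interval 1.92 to 4.87, adjusted p = 0.055), 4.43 for Oosp2 (95% interval 2.46 to 6.39, adjusted p = 0.0575) and 2.71 for Oosp3 (95% interval 0.45 to 4.96, adjusted p = 0.185). The median of all genes was 0.53 here, and Omt2a stood 3.06 above it. This contrast also equals CX45 against 8C less CX22 against 2C, so it is not independent of the comparison of CX45 with 8C. The Omt2a call ended without 8C replicate 1 (adjusted p = 0.148), without 8C replicate 2 (0.153) and without CX45 replicate 2 (0.0597), and also with quantile normalization (0.0782) and with moderation without a trend (0.0778).

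**Figure D4:**
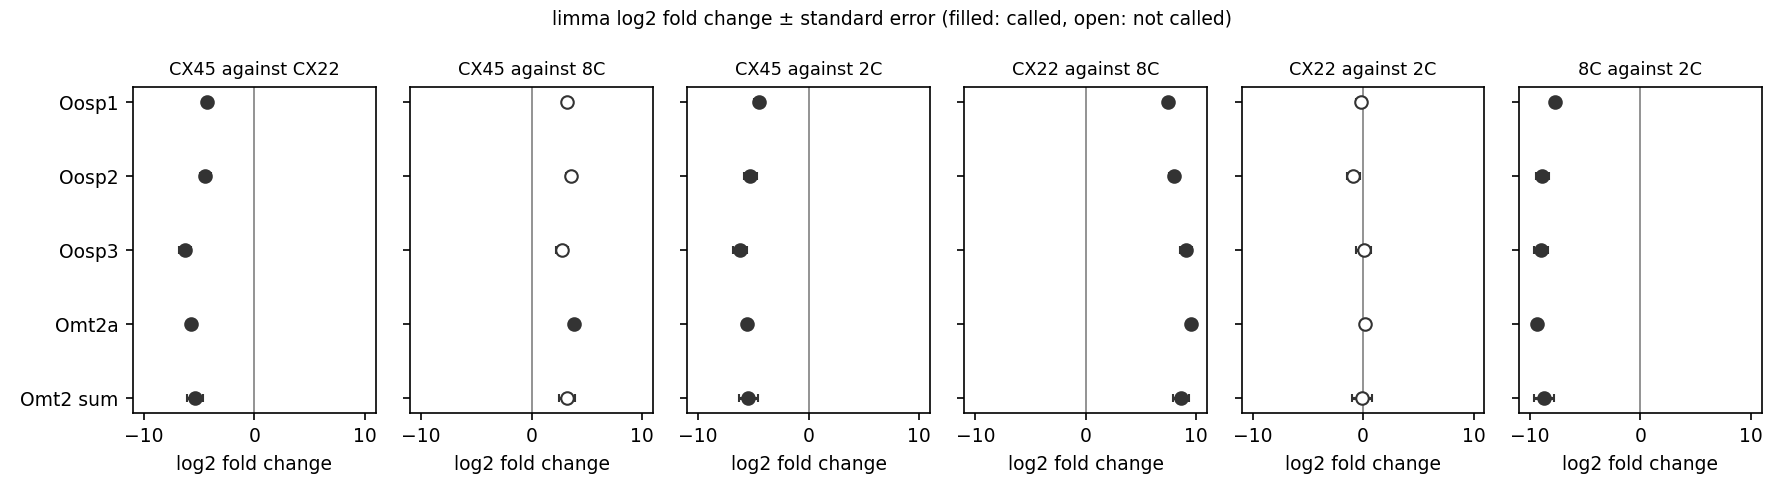
Log2 fold change with its standard error, from the limma fit, of Oosp1, Oosp2, Oosp3, Omt2a and the Omt2 sum in the 6 pairs of groups; filled points passed the test and open points did not. All points lie below 0 in CX45 against CX22, CX45 against 2C and 8C against 2C, above 0 in CX45 against 8C and CX22 against 8C, and near 0 in CX22 against 2C.

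Within a library, the members kept different proportions in different groups. Oosp1 over Oosp3 was 3.63 and 3.83 in CX45, 0.811 and 1.01 in CX22, 6.62 and 2.26 in 8C, and 1.10 and 1.06 in 2C, so Oosp3 was the lower of the pair by more in both CX45 and both 8C libraries than in any CX22 or 2C library. Oosp1 over Oosp2 was 4.40 and 4.22 in CX45, 4.36 and 3.20 in CX22, 33.2 and 8.79 in 8C, and 2.32 and 2.37 in 2C, where the CX45 and CX22 ranges overlapped. Omt2b over Omt2a was 1.52 and 1.34 in CX45, 2.47 in CX22 replicate 1, 2.90 and 2.36 in 8C, and 2.73 in 2C replicate 1, so both CX45 libraries lay below all others in which Omt2b was above 0. These ratios were not tested, and those that involve Oosp2 or Oosp3 in 8C rest on few fragments. The ratio of Omt2b to Omt2a also depends on how reads of their shared run were split between the 2 genes.

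The profiles of the 5 genes over the 7 samples were compared by the root mean square difference of centred log2(FPKM + 1), in which 0 is an identical profile. Oosp1 and Oosp2 were 0.391 apart, Oosp3 and Omt2a 0.608, and Oosp1 and Omt2a 0.906. Genes with predicted or clone names were left out of the nearest non-members named here. Among the other genes outside the 5 members, those nearest to Oosp1 were Angel2 (0.254), Pramel25 (0.307) and Pramel51 (0.36). By the same measure, the non-members nearest to Oosp2 were Obox5 (0.456), an oocyte-type homeobox gene, Gstm5 (0.486), a glutathione transferase, and Ifitm6 (0.528), all farther from it than Oosp1. The non-members nearest to Oosp3 were Wee2 (0.501), an oocyte kinase that holds Cdk1 inactive, Fam229b (0.544) and Obox5 (0.575). For Omt2a the nearest non-members were Ifitm3 (0.558), Wee2 (0.652) and Pate14 (0.682), with Oosp3 between the first and the others. With the names left out counted too, 2 non-members were nearer to Omt2a than Oosp3 was. By the same count 0 were nearer to Oosp2 than Oosp1 was, and 7 were nearer to Oosp1 than Oosp2 was. Other pairs of members were less close: 99 non-members were nearer to Oosp1 than Oosp3 was, and 103 than Omt2a was. For Oosp2, 25 were nearer than Oosp3. None of the genes kept lay near Omt2b, for which the non-members Fam216a (3.5), Cklf (3.63) and Ahsa2 (3.72) came first, each at or near 0 in CX22 replicate 2. Pramel51, with 104 and 211 FPKM in CX45, 1445 and 1921 FPKM in CX22, 8.55 and 13.6 FPKM in 8C, and 1923 and 1917 FPKM in 2C, shows what such a match looks like. The measure is a description over 7 samples that share libraries, with no test.

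Genes beside the clusters did not share their levels. Ms4a3, 6432 bases below Oosp2, was at 0 and 1.17 FPKM in CX45, listed at 0 in CX22 and 8C, and at 2.72 and 3.09 FPKM in 2C. Cblif, 35700 bases above Oosp3, was listed at 0 in all 8 libraries. Gm10639, 6446 bases below Omt2a, reached 1.79 FPKM, and Gsta2, 1399 bases above Omt2b, reached 0.72 FPKM, both in 8C replicate 1.

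Other oocyte genes give the setting for these changes. The sizes of their log2 fold changes are not directly comparable with those of the members. On log2(FPKM + 1) a fall cannot exceed the starting value, and most of these genes start below the members in 2C. Among 28 tested maternal effect and oocyte-restricted genes, 20 were called lower and 0 higher in 8C against 2C (20.7% and 16.4% of all genes tested), with a median log2 fold change of -3.97, against -0.04 over all genes tested. Wee2, at 0.0582 and 0.632 FPKM in 8C and 322 and 316 FPKM in 2C, fell by 7.93 on the log2 scale (limma adjusted p = 0.00198). The oocyte genes Nlrp9c (-6.30) and Nlrp4a (-4.83) fell too, as did Bcl2l10 (-7.14), a Bcl2 family member of the oocyte. In CX45 against CX22, 20 of the 28 were called lower and 0 higher, against 13.5% and 23.1% of all genes (median -2.86, against 0.47 over all genes), among them Wee2 (-5.61), Nlrp9a (-4.95) and Nlrp4a (-4.09). In CX45 against 2C, 18 were called lower, against 13.6% of all genes, and 0 higher (median -3.04, against 0.33). In CX22 against 2C, none of the 28 was called, against 3.88% of all genes, a share so low that this says little about the list (median -0.22, against -0.07). In CX22 against 8C, 20 were called higher and 1 lower, against 19.9% and 21.5% of all genes (median 3.66, against -0.05), Padi6 being the 1 that was lower. In CX45 against 8C only 78 of the 11853 genes tested were called, so that none of the 28 was called says little about the list. The median there was 1.18, against 0.31 over all genes. Oosp1, Oosp2, Oosp3 and Omt2a had log2 differences from 2.76 to 3.80 there, and whether they differ from the list was not tested.

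Egg surface and secreted proteins were mixed. Of 9 tested, 4 were called lower and 1 higher in 8C against 2C, against 20.7% and 16.4% of all genes (median -3.17, against -0.04). Bmp15, a growth factor that the oocyte secretes to its cumulus cells, was at 0.808 and 2.72 FPKM in 8C and 750 and 724 FPKM in 2C, and fell by 8.15 on the log2 scale (limma adjusted p = 0.0041). Gdf9, its partner growth factor, fell by 4.85, and Izumo1r, the egg receptor for sperm Izumo1, fell by 3.47. Cd9, a membrane protein needed on the egg for fusion with sperm, rose by 5.59 (adjusted p = 0.00442). In CX45 against CX22, 2 were called lower, Bmp15 (-5.66) and Gdf9 (-2.78), and 2 higher, Cd9 (2.92) and Cd81 (1.35), against 13.5% and 23.1% of all genes, with a median of -0.04, against 0.47. The share called higher there is close to the background. None of the 9 was called in CX45 against 8C, where 78 of all 11853 genes were (median 1.45, against 0.31). In CX22 against 2C 1 was called, against 3.88% of all genes: Izumo1r, which was lower (-3.38).

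Of 2 tested oocyte transcription factors, Lhx8 was called lower in 8C against 2C (-3.71, limma adjusted p = 0.00901) and in CX45 against CX22 (-3.15, adjusted p = 0.00874). Nobox was at 0 and 3.50 FPKM in CX45, 0.162 and 4.10 FPKM in CX22, 0 and 0.0260 FPKM in 8C and 19.8 and 17.7 FPKM in 2C, and was called in neither. Figla was listed at 0 in all 8 libraries. Of 19 tested genes of maternal mRNA deadenylation and decay, 7 were called lower and 2 higher in 8C against 2C, against 20.7% and 16.4% of all genes (median -0.91, against -0.04). In CX45 against CX22, 6 were called lower and 3 higher, against 13.5% and 23.1% of all genes (median -0.74, against 0.47). The shares called higher lay below the background in both. Dcp2, the catalytic subunit that removes the cap, had a log2 fold change of -4.09 in 8C against 2C and -3.31 in CX45 against CX22. Cnot6l, a deadenylase subunit, had -4.37 in 8C against 2C and -3.42 in CX45 against CX22. Btg4, which brings the deadenylase to maternal mRNAs, had -7.47 in 8C against 2C and -5.40 in CX45 against CX22. None of the 19 was called in CX45 against 8C (median 0.17, against 0.31) or in CX22 against 2C (median 0.01, against -0.07). Over all 11853 genes, 78 were called in the first and 3.88% in the second, so these zeros say little about the list.

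Plac1, the relative of the Oosp genes outside the cluster, was near 0 in the 2 groups where the members were highest. It was at 6.47 and 6.15 FPKM in CX45, 0 and 0.398 FPKM in CX22, 1.46 and 2.42 FPKM in 8C, and listed at 0 in both 2C libraries. It was called higher in CX45 against CX22 (log2 difference 2.63, limma adjusted p = 0.00854) and in CX45 against 2C (2.87, adjusted p = 0.0138), and lower in CX22 against 8C (-1.29, adjusted p = 0.0418). Plac1 did not pass in CX45 against 8C (1.33, adjusted p = 0.153) or in 8C against 2C (1.54, adjusted p = 0.0501). Dppa3, a maternal effect gene of similar abundance to Omt2a in 2C, stayed between 14090 and 26937 FPKM in all 8 libraries and was called in no comparison.

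**Figure D5:**
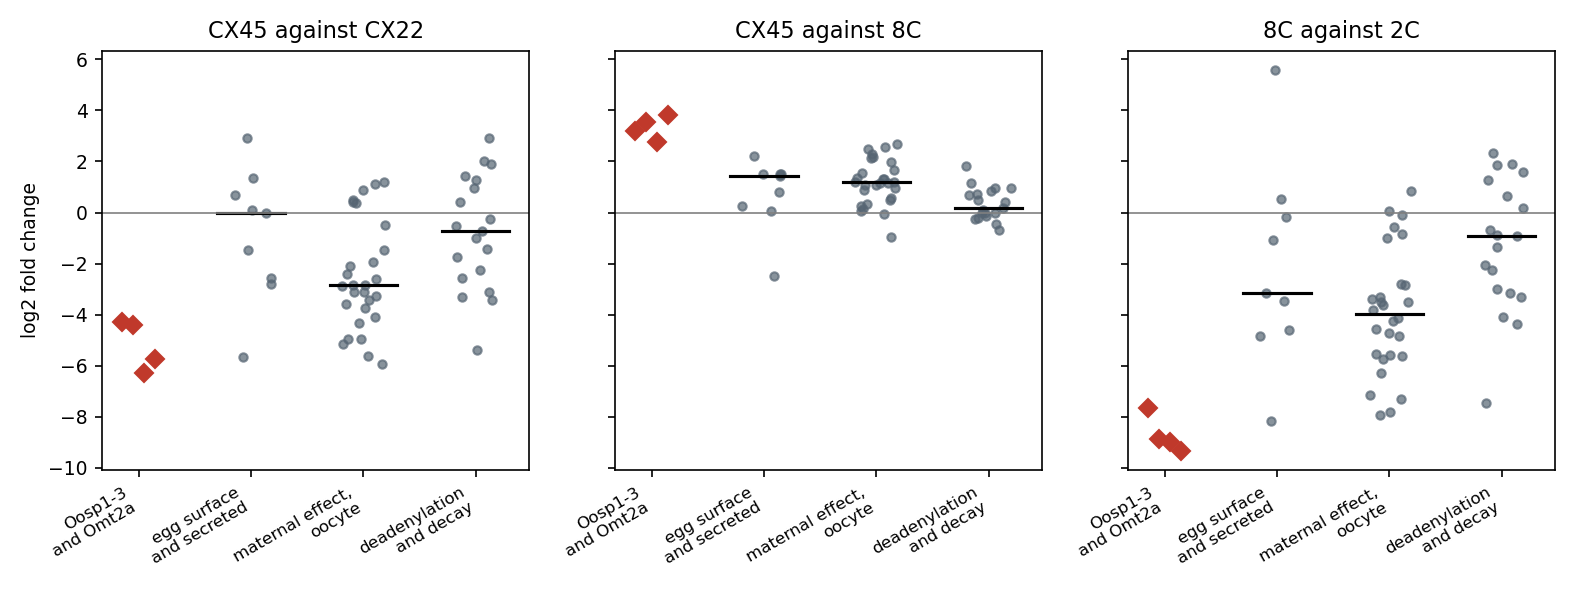
Log2 fold change of Oosp1, Oosp2, Oosp3 and Omt2a (diamonds, left) and of the tested genes of 3 lists (points, with a bar at the list's median) in CX45 against CX22, CX45 against 8C and 8C against 2C. The 4 members lie between -9.34 and -7.67 in 8C against 2C, where the medians of the lists are -3.17, -3.97 and -0.91, and between 2.76 and 3.80 in CX45 against 8C, where those medians are 1.45, 1.18 and 0.17. Some list genes lie within the members' range in 8C against 2C, such as Bmp15 (-8.15) and Wee2 (-7.93).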

How the data were processed

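Per the labels' protocols, embryo RNA was amplified by Smart-seq and sequenced on a BGISEQ500 machine. Per the submitters' processing notes, the authors used the genome build mm9, HISAT2 (listed with version 4.8.2) and Cufflinks 2.2.1; no source used here gives the annotation release or settings. The deposited values are FPKM per RefSeq transcript and locus, made by the authors, not counts. Of 41876 entries, 41782 matched a gene symbol, and the 94 others carried at most 0.212% of the summed FPKM of a library. Entries were summed per gene, which also merges genes with several loci.

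The 11853 genes that reached 1 FPKM in 2 or more of the 8 libraries were tested on log2(FPKM + 1) with limma 3.58.1 in R 4.3.3, with a trend on mean expression, two-sided, and Benjamini-Hochberg adjustment over all genes tested. The 2C libraries were averaged, so the fit had 7 samples with 3 residual degrees of freedom and took the spread of 2C from the other groups. Calls needed an adjusted p under 0.05 with a log2 fold change of 1 or more in size (adjusted p alone for the difference of differences). Standard errors and 95% intervals come from that fit and are not adjusted for the number of tests. Implied depths are those at which low FPKM steps come closest to whole fragments. Of the low values, 61.7% to 65.8% came within 0.05 of a whole number. That was too few to recover exact counts, so the groups were not compared by a count test. Approximate fragment numbers from these depths were used for the chi-square between replicates, where they were rounded, and for the limit of detection. Both, and the averaging of the 2C libraries that rests on the first, depend on that approximation. The alternatives were 18 planned and 1 added (Omt2b zeros as missing).

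The members, the gene lists and the motifs were chosen with earlier results of these data known. Named were the 5 members, from each list at most 4 called genes per comparison by smallest p, the 3 nearest profiles per member (predicted and clone names left out) and the neighbours of each locus. Cd81, Figla, Nobox, Padi6, Plac1 and Dppa3 were named in part after their values were seen. Promoters were read from RefSeq windows (GRCm38.p6), in which 4 of 5 members matched. Coordinates of the table count from 0 and were shifted to count from 1.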

Additional observations from a re-analysis of the deposited data

Results flagged for a closer look

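The fall of Omt2a in CX45 against CX22 differed from its fall in 8C against 2C, by a test of the difference itself. The same contrast is its log2 fold change in CX45 against 8C (3.80) less that in CX22 against 2C (0.21). It is thus not separate from the CX45 against 8C result. Omt2a was at 579 and 808 FPKM in CX45, against 40420 and 33867 FPKM in CX22, and at 50.7 and 45.6 FPKM in 8C, against 30570 and 33189 FPKM in 2C. The log2 fold change in CX45 against CX22 was -5.75 and that in 8C against 2C was -9.34, a difference of 3.59 (limma adjusted p = 0.026), with CX45 above 8C in both libraries. The adjusted p ranged from 0.00493 to 0.153 over the alternatives. With 2 libraries per group, no test for a library that stands apart within a group was made.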

How the results depend on the processing

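The calls of Oosp1, Oosp2, Oosp3 and Omt2a in 8C against 2C, CX45 against 2C, CX22 against 8C and CX45 against CX22 kept their direction and their side of the threshold under all 19 alternatives. In CX22 against 2C none of these 4 was called in any alternative. In CX45 against 8C 1 member was called, beside 54 of 11853 genes called higher. With a pseudocount of 0.1 it was 2 members (144 genes higher), and with a filter of 5 FPKM 3 (93 of 7939 genes). With the 2C libraries separate it was 4 (839 genes), and under the replicate block, a fit that also keeps them separate, 4 (571 genes). With a pseudocount of 10, no filter, median-of-ratios scaling, quantile normalization or moderation without the trend, 0 genes were called higher, and so 0 members. Leaving out a library gave between 0 and 1. In the difference of differences 1 member was called, against 4 with the 2C libraries separate, with or without the replicate block, 0 with quantile normalization or without the trend, and between 0 and 2 when a library was left out. Leaving out a library gave between 0 and 1 in CX22 against 2C. The block always came with separate 2C libraries, so no count here can be put down to the block. Over all genes, the difference of differences had 376 called higher as reported. It had 1425 with the 2C libraries separate, 1093 under the block, and 0 with quantile normalization or without the trend. The cause of these changes was not tested.

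The Omt2 sum in CX22 against 2C was 0.16 in place of -0.09 with the 2C libraries separate and 0.16 under the replicate block, and between -1.12 and 1.05 when a library was left out. In CX45 against 8C it was 3.25 and called under the replicate block (adjusted p = 0.0478). When a library was left out it lay between -6.10 and -4.32 in CX45 against 2C, between -6.40 and -4.35 in CX45 against CX22, and between 2.19 and 4.37 in the difference of differences, where it was called without CX22 replicate 1 (adjusted p = 0.0411).

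The sign of Omt2b depended on how its zeros entered the fit. As reported it was -7.05 in CX22 against 2C, -5.42 in CX45 against 2C and 1.32 in CX22 against 8C. In that fit the 2C zero was averaged in FPKM with the other 2C library, while the CX22 zero entered on the log2 scale. With the 2C libraries separate, the 2C zero entered on the log2 scale too. In CX22 against 2C Omt2b was then 0.13, with or without the replicate block. It was 0.26 with the zeros as missing, and from -15.35 to 8.30 when a library was left out. In CX45 against 2C it was 1.76 with the 2C libraries separate and 1.76 under the replicate block, and from -6.42 to 9.93 when a library was left out. In CX22 against 8C it was -0.33 with a pseudocount of 0.1, and from -6.99 to 9.62 when a library was left out. In CX45 against CX22 it was -0.0191 with a pseudocount of 10 and -6.68 with the zeros as missing, and from -6.68 to 9.93 when a library was left out. Leaving out a library gave -9.36 to 6.99 in 8C against 2C and -5.36 to 18.29 in the difference of differences. In CX22 against 2C, Oosp1 lay between -0.4204 and 0.0071 and Oosp3 between -0.0037 and 0.1129 when a library was left out, and so changed sign close to 0.

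The replicate numbers did not pair the libraries: the differences between replicates correlated between groups by at most 0.108, so the block is a fit on shared numbers only. Calls over all genes ranged under the alternatives from 1416 to 6693 in 8C against 2C (4397 as reported), 58 to 1611 in CX22 against 2C (460), 1497 to 6101 in CX45 against 2C (3533), 1873 to 5823 in CX22 against 8C (4913), 0 to 1038 in CX45 against 8C (78), 2444 to 5401 in CX45 against CX22 (4335) and 0 to 1779 in the difference of differences (424). In CX45 against CX22, 2737 genes were called higher and 1598 lower, and after quantile normalization 2016 higher and 2084 lower. Depth limits the 8C values of Oosp2 and Oosp3, and 2 libraries per group limit every test.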
